A study of Homo sapiens with 24 samples.

Results

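The experiment described here raised miR-181c-5p in D538G cells. T-47D is a luminal, estrogen receptor (ER) positive breast cancer cell line, and D538G is a change in the ligand-binding domain of ER that keeps the receptor active without hormone. The D538G clones, named A5 and C2, carry the mutation heterozygously at the endogenous ESR1 gene, and the WT clones, named D1 and D4, come from the same line without it. All cells were kept in hormone-deprived medium and transfected for 24 h at 10 nM with a miRNA mimic, a double-stranded RNA that is loaded as if it were the mature miRNA, or with a mimic negative control. Members were the 4 D538G libraries of 24 in the series, 2 with the miR-181c-5p mimic and 2 with the control, 1 of each per clone. The WT libraries with the same mimic and control (4) and the D538G libraries with a miR-301b-3p mimic (2) were used for comparison. Each genotype therefore rests on 2 clones of 1 cell line, and p-values of the main tests measure the spread between clones, which are not separate donors.

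The 4 libraries held 33756400 to 42379171 counts each. The 12 luminal markers fixed for T-47D summed to 11774 to 12455 CPM (counts scaled to the size of the library) per library, with KRT8 and KRT19 the most abundant. The 3 basal markers summed to at most 1.07 CPM, the 3 endothelial markers to at most 0.166 CPM and the 3 leukocyte markers to at most 5.20 CPM. Of the 6 fibroblast markers only COL1A1 was above 5 CPM (47.9 to 69.9 CPM), and PDGFRB was at 0. A property that moved with the treatment was base composition. The Spearman correlation between a gene's GC content and its deviation in a library was -0.302 and -0.373 in the control libraries and 0.161 and 0.208 in the mimic libraries. It was 0.286 and 0.310 in the D538G libraries with the miR-301b mimic, so the shift from control was not particular to miR-181c. In WT cells it was -0.566 and -0.450 in control and 0.074 and 0.206 in miR-181c mimic libraries. These values stand beside the results below. The part of GC content in those results was not tested.

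miR-181c belongs to the miR-181 family, which acts through Argonaute proteins. The seed of the miRNA, bases 2 to 8, pairs mainly with 3′UTRs, and paired mRNAs are destabilized and translated less. The family is known for work in lymphocyte development and in tumours, and for sites inside the coding sequence of C2H2 zinc-finger genes, where the repeated finger sequence repeats the match. The 4 human family members carry the same seed (capitals), while miR-301b-3p has another. The mature sequences below are from RefSeq (GRCh38.p14).
hsa-miR-181a-5p: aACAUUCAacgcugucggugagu
hsa-miR-181b-5p: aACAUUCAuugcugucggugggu
hsa-miR-181c-5p: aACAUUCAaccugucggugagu
hsa-miR-181d-5p: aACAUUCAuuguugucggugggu
hsa-miR-301b-3p: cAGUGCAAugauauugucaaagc

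The question of the first comparison was which mRNAs change when miR-181c-5p is added to D538G cells by transfection. Of 14826 genes tested, 1412 (9.52%) were called at an adjusted p below 0.05 (edgeR quasi-likelihood test), 585 down (3.95%) and 827 up (5.58%). Changes were moderate: the median was -0.48 on the log2 scale among genes called down and 0.44 among genes called up, and 16 and 19 genes, respectively, changed at least 2-fold. Every called gene moved the same way in both clones, which a call in groups of 2 nearly requires. The larger change was in clone C2 for 522 of the 585 and 700 of the 827. The count depended on single libraries. It was lower without the mimic library of C2, the control library of C2 or the mimic library of A5, and higher without the control library of A5. With clone as a block it was 4341 (2022 down, 2319 up).

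Genes called down had a median GC content of 41.0% and genes called up 62.0%, against 48.7% for all genes tested. Across the 14272 genes with an annotated transcript the Spearman correlation of log2 fold change with GC content was 0.57, a description over genes that share the same 4 libraries. After each library's trend on GC content was removed, 203 genes were called (116 down, 87 up), 42.9% of them up against 58.6% before. With clone as a block as well, 2768 were called, 1171 down (7.9% of all genes) and 1597 up (10.8%). Of the 585 genes called down, 92.0% were called down with block and GC correction together, and 438 of the 827 called up were called up.

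**Figure D1:**
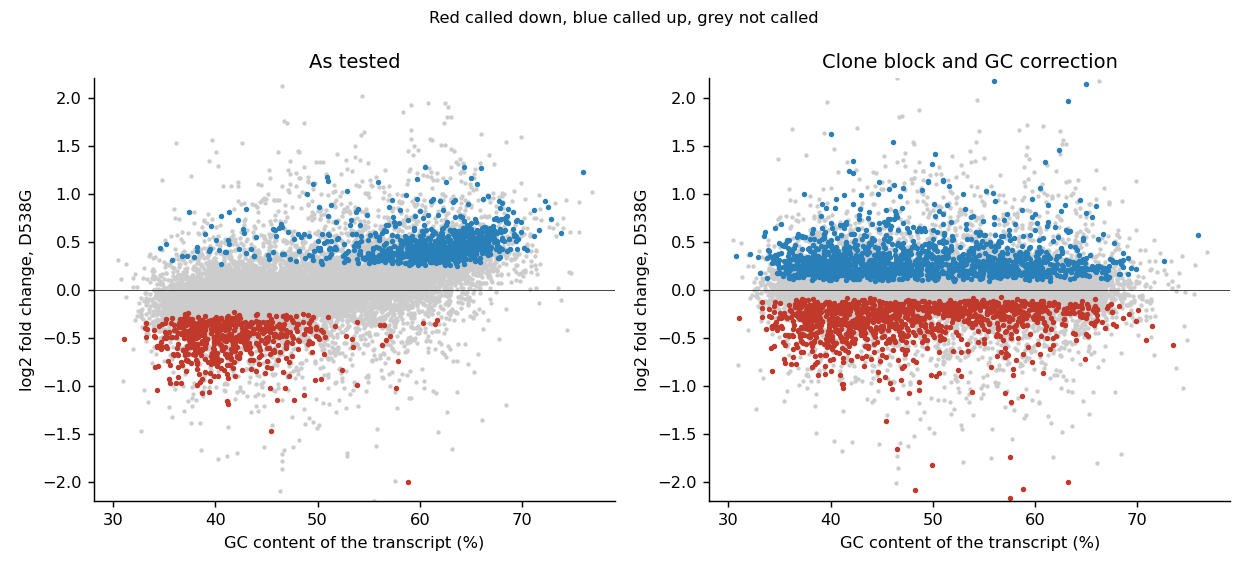
Each point is a gene, plotted by the GC content of its transcript (%) and its log2 fold change (mimic over control, D538G clones), as tested on the left and with clone block and GC correction on the right; red genes were called down, blue genes up and grey genes not called in the fit of that panel, and a few points outside the axis are not drawn. On the left the red genes sit at low and the blue genes at high GC content (medians 41.0% and 62.0%), and on the right the slope is gone (Spearman correlation -0.0158).

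The 12 largest falls among genes of at least 3 log2 CPM held 11 with a match to the miR-181c seed in the 3′UTR. Of all tested genes with an annotated 3′UTR 21.3% had a match. The 1 exception among the 12 falls, ZNF788, had no annotated 3′UTR here. The strongest site of each of the 11 is printed below to show the match in these genes, as a description. Capitals mark the letters that pair with the seed, TGAATGT, with the A opposite base 1 where present (TGAATGTA, called an 8mer; without the A, a 7mer-m8). All lie in 3′UTRs and are given on the mRNA strand with hg19 coordinates.
HDHD1, chrX:6968044-6968067, minus strand: ggagtatgtgataaagTGAATGTA
KIF3B, chr20:30922243-30922266, plus strand: acaagtcctccctcacTGAATGTA
SAMHD1, chr20:35521218-35521241, minus strand: ctttaattttgtatttTGAATGTA
CTDSPL, chr3:38022462-38022484, plus strand: gctccaggccacagggTGAATGT
HMGB2, chr4:174253000-174253022, minus strand: ttacagcttctgatgtTGAATGT
PRKAG2, chr7:151254273-151254296, minus strand: aacggagtgaccgccgTGAATGTA
SOWAHA, chr5:132151646-132151669, plus strand: acgattgtgaccattaTGAATGTA
MBOAT1, chr6:20101157-20101179, minus strand: ttttctatctttgttaTGAATGT
BEND3, chr6:107389150-107389173, minus strand: ctggatgatgatgataTGAATGTA
GNB4, chr3:179117327-179117350, minus strand: ttgtagatggcagttaTGAATGTA
SSB, chr2:170668418-170668441, plus strand: gcaaatgagatttcttTGAATGTA

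The 12 fell to between 0.36 and 0.51 of control (log2 fold changes -1.48 to -0.98, SE 0.08 to 0.22, adjusted p = 0.00129 to 0.0221), and in each of them both mimic libraries lay below both control libraries. That order of libraries was seen in 27.4% of all genes tested. HDHD1, a phosphatase gene now also called PUDP, showed the largest fall of the 12. Its level was 25.7 CPM in the A5 control and 24.8 in the C2 control, and 10.2 (A5) and 7.81 CPM (C2) with the mimic, so the 2 clones agreed closely before treatment and the larger fall was in C2 (log2 fold change -1.48, SE 0.15, adjusted p = 0.00176).

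KIF3B, the motor subunit of kinesin-2 with 2 matches in its 3′UTR and 1 in its coding sequence, was the most abundant mRNA among the 4 largest falls. It was at 248 and 262 CPM in the control libraries and at 121 and 108 CPM with the mimic (log2 fold change -1.15, SE 0.08, adjusted p = 0.00129). Its partner in the same motor, KIF3A, with 3 matches, fell from 43.6 and 43.2 CPM to 34.1 and 28.8 CPM (-0.46, SE 0.11, adjusted p = 0.0272). KIF3C, the alternative partner of KIF3A and a gene without a match, went the other way at a low level, from 1.74 and 1.80 CPM to 4.44 and 3.23 CPM (1.12, SE 0.29, adjusted p = 0.0402). Kinesin-2 subunits thus moved in opposite directions. Kinesins were listed because KIF3B was known to fall in these data. Of 34 tested symbols that begin with KIF and a number, which include the antisense RNA KIF9-AS1 (not called), 4 were called down and 1 up. The shares were 11.8% and 2.94%, against 3.95% and 5.58% of all genes. With clone as a block 10 were called down and 2 up (13.6% and 15.6% of all genes). With GC correction as well 6 were called down and 4 up (7.9% and 10.8% of all genes). KIF2C, a mitotic microtubule depolymerase (-0.50), and KIF1B, an organelle motor (-0.35), were the other falls as tested. KIF3A was not called without the mimic library of C2 (-0.34), KIF2C without that of A5 (-0.40), and KIF1B without either of these or the control library of C2. With GC correction alone KIF3B was the only kinesin called.

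SAMHD1, which breaks down dNTPs, was at 39.2 and 47.3 CPM in control and at 19.0 and 19.9 CPM in mimic libraries. CTDSPL, a phosphatase with 4 matches in its 3′UTR, was at 110 CPM in each control library and at 54.0 and 48.0 CPM with the mimic. HMGB2, a chromatin protein of dividing cells, was at 148 and 180 CPM against 76.5 and 79.6 CPM. In all 3 the groups were well apart and the level with the mimic was 45.0% (SAMHD1), 46.5% (CTDSPL) and 47.6% (HMGB2) of control. GNB4, a G-protein beta subunit with 3 matches, was the most abundant of the 12, at 294 and 309 CPM in control and 167 and 135 CPM in mimic libraries. SSB, the La protein that binds the ends of RNA polymerase III transcripts, was at 111 and 115 CPM against 59.5 and 55.1 CPM.

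The remaining falls were in genes of lower level. PRKAG2, a regulatory subunit of AMP-activated protein kinase, was at 19.9 and 18.4 CPM in control and 9.12 and 9.58 CPM in mimic libraries. MBOAT1, a lysophospholipid acyltransferase, was at 24.5 and 24.3 CPM against 10.7 and 13.3 CPM. These were the only genes of the 12 in which the fall was larger in A5 than in C2. SOWAHA was at 39.7 and 35.9 CPM against 19.8 and 17.2 CPM. BEND3, a heterochromatin protein with 2 matches, had the largest SE of the 12 (0.22), at 11.9 and 12.0 CPM in control and 7.23 (A5) and 4.63 CPM (C2) with the mimic (adjusted p = 0.0221). Its call was lost without the mimic library of C2 (-0.71) and with GC correction alone, whereas the other 11 were called in every alternative listed for this comparison.

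The 12 largest rises were found in genes of 49.0% to 66.6% GC, 3 of which (SLC36A1, ANKRD9 and FAM43A) had a 3′UTR match. Of all tested genes with an annotated 3′UTR 21.3% had a match. The levels of the 12 rose 1.89-fold to 2.40-fold (log2 fold changes 0.92 to 1.26, SE 0.09 to 0.25, adjusted p = 0.00173 to 0.0279). In each, both mimic libraries lay above both control libraries, an order seen in 27.6% of all genes tested. CEBPD, a C/EBP transcription factor of stress and growth arrest, rose most, from 9.22 and 10.6 CPM to 22.8 and 24.6 CPM (1.26, SE 0.14, adjusted p = 0.002). SLC36A1, a lysosomal amino acid transporter, was at 14.1 and 15.1 CPM in control and 28.8 and 34.9 CPM in mimic libraries. CDKN1A, which encodes the CDK inhibitor p21, was at 39.9 and 46.6 CPM against 73.4 and 90.8 CPM.

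NTN1, the guidance cue netrin-1, was at 40.7 and 35.7 CPM in control and at 72.3 (A5) and 93.8 CPM (C2) in mimic libraries, so C2 changed more from a lower start. FGFR4, a fibroblast growth factor receptor, was at 49.2 and 48.3 CPM against 85.7 and 101 CPM. PTPMT1, a mitochondrial phosphatase, was at 57.0 and 49.8 CPM against 102 and 110 CPM, and the miR-301b mimic gave 100 and 108 CPM (difference between mimics 0.03, SE 0.08, adjusted p = 0.923). IGFBPL1 varied most, at 6.28 and 8.06 CPM in control and 11.9 and 20.3 CPM with the mimic (1.17, SE 0.25, adjusted p = 0.0196). With GC correction alone, IGFBPL1, ANKRD9, METRN, VASN, EVPLL and FAM43A were not called, and all 12 were called with block and GC correction together. Leaving out the mimic library of C2 ended the call of IGFBPL1 (0.73) and FAM43A (0.85), and leaving out the control library of C2 (0.77) or the mimic library of A5 (0.61) ended that of EVPLL.

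**Figure D2:**
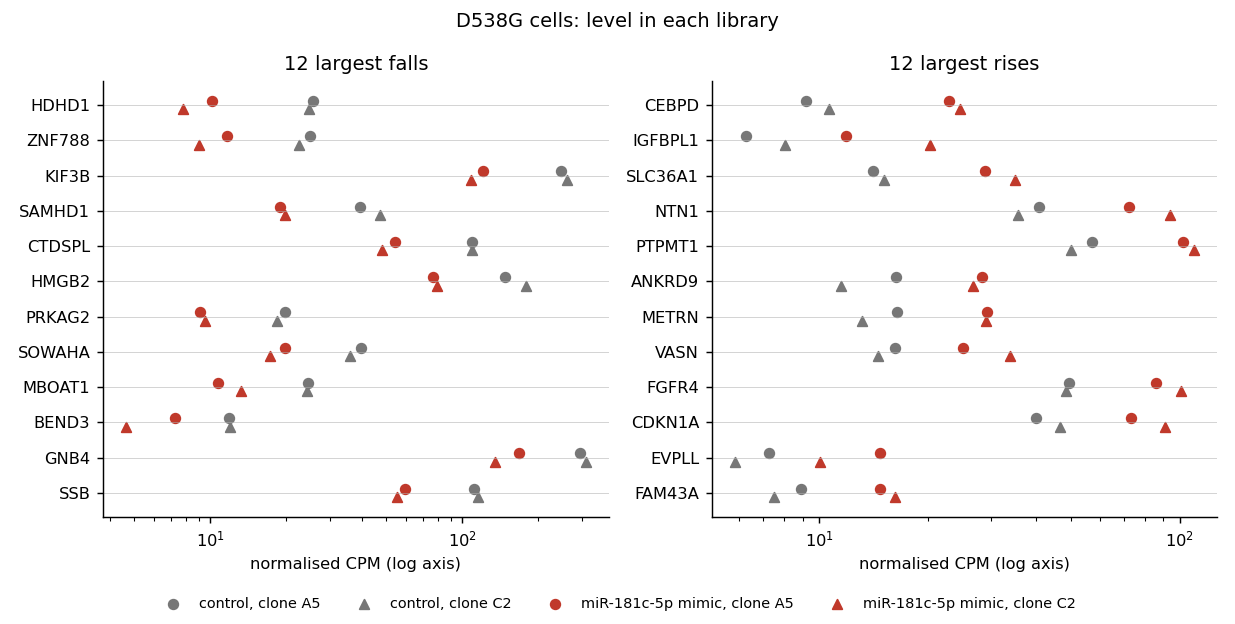
Normalised CPM (log axis) of the 12 largest falls (left) and the 12 largest rises (right) in each D538G library; grey is control, red is the miR-181c-5p mimic, circles are clone A5 and triangles clone C2. In every row the red symbols lie on one side of the grey ones, with the widest distance between clones under the mimic for BEND3 and IGFBPL1.

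Whether the falls followed the seed was examined in the 13104 tested genes with an annotated 3′UTR. Of these 2789 (21.3%) had an 8mer or 7mer-m8 match. Of the 576 called down, 409 (71.0%, 95% Wilson interval 67.2 to 74.6) had a match, and of the 826 called up, 58 (7.02%). Of 913 genes with an 8mer, 24.5% were called down and the median log2 fold change was -0.23. Of 1876 with a 7mer-m8 as the best site 9.86% were called down (median -0.11), and of 754 with a 7mer-A1, the shorter match followed by an A, 8.75% (median -0.12). Of 1693 with a 6mer 2.89% were called down (median -0.03), and of 7868 with none 0.661% (median 0.08). The 8mer class was lowest, and the 7mer-m8 and 7mer-A1 classes were close to each other.

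The number of sites went with the size of the fall. Genes with 1 8mer or 7mer-m8 site had a median of -0.12, genes with 2 sites -0.21 and genes with at least 3 sites -0.29, and 11.1%, 22.3% and 31.2% of them were called down. Genes with more sites also had longer 3′UTRs (median 2681, 3898 and 5796 bases) and lower GC content (43.7%, 42.0% and 40.6%). The difference between the median of genes with and without a match was -0.187 over both clones, -0.146 in A5 and -0.233 in C2. With GC correction the difference was -0.074. With the genes parted into 3 equal classes of GC content it was -0.099, -0.084 and -0.132, from the lowest to the highest class, so genes with a match lay below those without in each. In the lowest class 19.4% of genes with a match and 4.12% of those without were called down, and in the highest class 3.09% and 0.0247%.

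**Figure D3:**
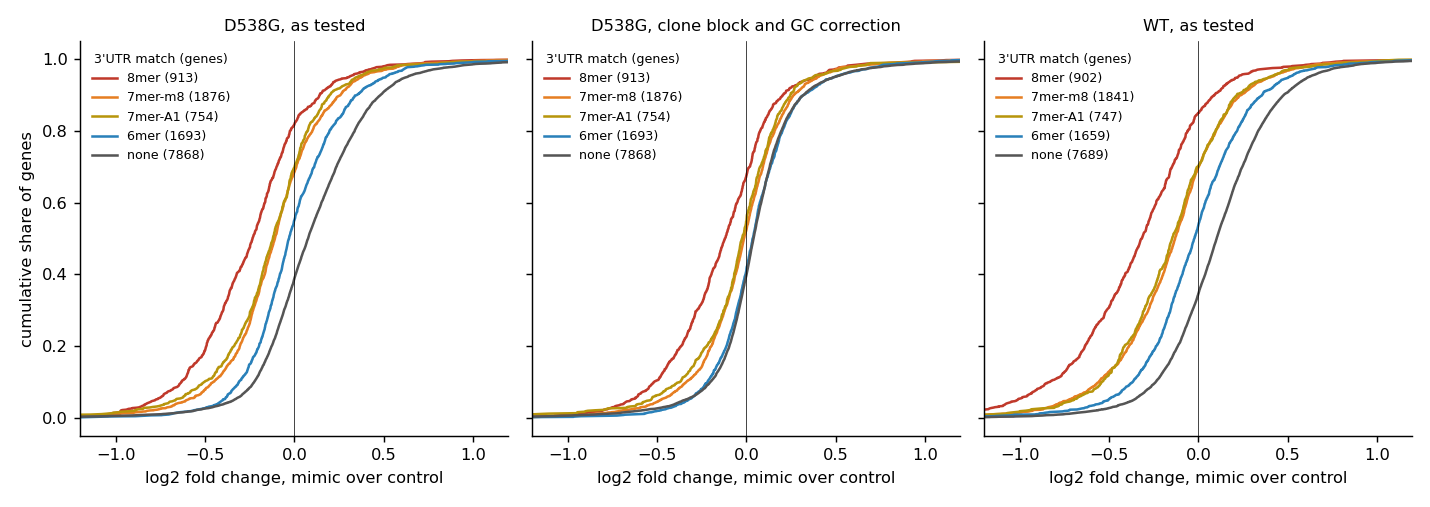
Cumulative share of genes (y axis) by log2 fold change of the miR-181c-5p mimic over control (x axis), one line per class of best seed match in the 3′UTR; D538G as tested, D538G with clone block and GC correction, and WT as tested, with the x axis limited to the range drawn. The 8mer line lies furthest left in each panel (medians -0.23, -0.12 and -0.32), and the distance to genes without a match is narrowest in the middle panel.

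Seeds of miRNAs that were not added gave the background of this measure. The miR-301b seed was matched in 26.6% of genes called down and 16.2% of those tested, with a median difference of -0.076 between genes with and without it. For let-7f the difference was -0.024, and for miR-331 it was 0.122, towards higher levels. After block and GC correction these differences were 0.011 (miR-301b), 0.017 (let-7f) and 0.0092 (miR-331), and that of miR-181c was -0.074.

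Coding-sequence matches were examined next. Among genes called down, 180 of 576 (31.2%) had an 8mer or 7mer-m8 in the coding sequence, against 13.9% of the genes tested. Of the 585 genes called down, 63 had a coding match and no 3′UTR match, 13 of them ZNF genes, and 113 had neither or no annotation. ZNF genes encode zinc-finger proteins, most of them DNA-binding repressors of the C2H2 kind. Of 489 tested, 38 were called down (7.77%, against 3.95% of all genes) and 10 up, with a median of -0.17 against -0.0029 for all genes. With clone as a block 142 were called down and 40 up (13.6% and 15.6% of all genes). With block and GC correction 62 were called down and 11 up (7.9% and 10.8% of all genes), with a median of -0.065. GC correction alone left 6 ZNF genes called down and 0 up. The median GC content of the ZNF genes was 43.2%. ZNF genes share sequence with one another, and how reads that fit several genes were counted is not given in the sources used here, so single members are uncertain.

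Of the 160 genes with at least 5 coding matches 137 were ZNF genes, and 33 of the 38 ZNF genes called down had a coding match, 24 of them at least 5. Among ZNF genes without a 3′UTR match, the median was 0.14 with no coding match (149 genes), -0.11 with 1 (36), -0.22 with 2 to 4 (55) and -0.30 with at least 5 (74), of which 10 were called down. With block and GC correction the medians were 0.023, -0.0065, -0.093 and -0.14. GC content differed mainly between the first class and the rest (medians 53.5%, 41.7%, 42.8% and 42.0%). The order of the medians was therefore the same under both fits.

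ZNF33B carried 18 coding matches and 1 in its 3′UTR. It fell from 58.6 and 60.5 CPM to 31.4 and 29.4 CPM (-0.97, SE 0.09, adjusted p = 0.00173). The 5 8mers among its coding matches, chosen after their values were seen, are shown because the letters before the match repeat as well. In C2H2 genes this stretch encodes the linker between fingers.
ZNF33B, chr10:43089404-43089427, minus strand: aaggagagaaacacttTGAATGTA
ZNF33B, chr10:43088900-43088923, minus strand: taggagataaaccttaTGAATGTA
ZNF33B, chr10:43088564-43088587, minus strand: caggggagaaaccctaTGAATGTA
ZNF33B, chr10:43088480-43088503, minus strand: taggggagaaaccctaTGAATGTA
ZNF33B, chr10:43088144-43088167, minus strand: caggggaaaagccctaTGAATGTA

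ZNF268 and ZNF37A, with 14 coding matches each, fell from 49.5 and 51.7 CPM to 29.9 and 27.4 CPM and from 85.9 and 87.1 CPM to 52.5 and 39.9 CPM. ZNF788, the largest fall among ZNF genes, was at 25.0 and 22.6 CPM in control and 11.7 and 9.07 CPM in mimic libraries (-1.19, SE 0.15, adjusted p = 0.00374), and no coding sequence was annotated for it here.

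**Figure D4:**
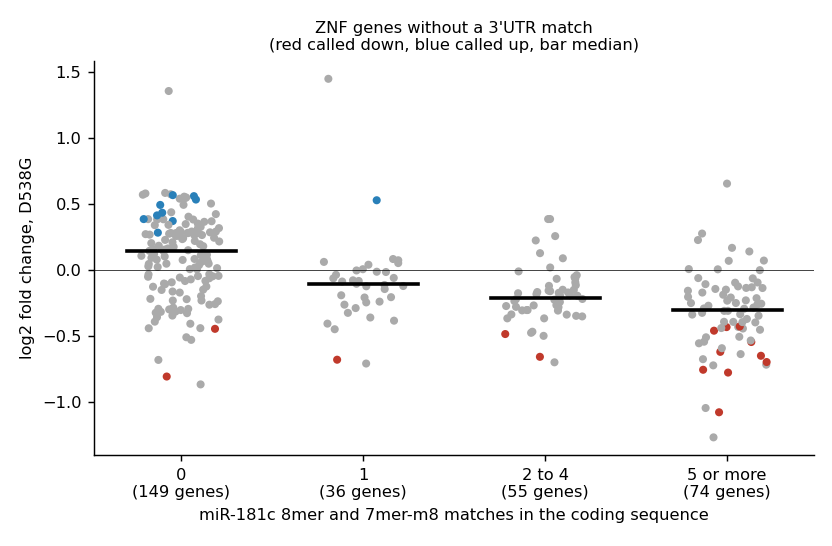
Log2 fold change in D538G cells (y axis) of ZNF genes without a 3′UTR match, by the number of miR-181c 8mer and 7mer-m8 matches in the coding sequence (x axis); each point is a gene, red called down, blue called up, and the bar is the median. The bars step down from 0.14 to -0.30 from the genes without a coding match to those with at least 5.

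ESR1, the gene of ER itself and the mutated gene in these clones, fell from 243 and 242 CPM to 176 (A5) and 143 CPM (C2), by 0.60 on the log2 scale (SE 0.10, adjusted p = 0.0074), the larger fall being in C2. GC correction without the block ended this call (-0.51, adjusted p = 0.054). Its 3′UTR holds 1 site, an 8mer, shown, after its value was seen, with that of PIK3CB, the p110-beta subunit of PI3K. PIK3CB fell from 171 and 165 CPM to 118 and 102 CPM (-0.60, SE 0.09, adjusted p = 0.00499), a call also lost with GC correction alone (-0.43, adjusted p = 0.0546).
ESR1, chr6:152422083-152422106, plus strand: ttgtttatcagacaatTGAATGTA
PIK3CB, chr3:138373090-138373112, minus strand: ataggaactactggttTGAATGT

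Genes that ER induces formed another list. Of 28 tested, 9 were called down (32.1%, against 3.95% of all genes) and 1 up (CCND1, 0.29), with a median of -0.16. With block and GC correction 15 were called down and 2 up (7.9% and 10.8% of all genes). The block alone gave 13 down and 4 up (13.6% and 15.6% of all genes). PGR, the progesterone receptor, went from 821 and 878 CPM to 613 and 491 CPM (-0.62, adjusted p = 0.0069), and GREB1, a cofactor of ER, from 250 and 265 CPM to 175 and 164 CPM (-0.60, adjusted p = 0.0032). Of these PGR has 2 matches in its 3′UTR and GREB1 none. ADCY9, an adenylyl cyclase, and MYBL1, a MYB family factor, fell by 0.75 and 0.60 on the log2 scale. Of the 9 genes called down 5 had a 3′UTR match. PGR and MYBL1 were not called with GC correction alone, nor MYBL1 without the mimic library of C2 (-0.54).

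Other genes that the study names, though for other miRNAs, showed mixed values. It names PLAGL2 and TUSC2 for the let-7f inhibitor, CDK1 and KIF14 for miR-301b and miR-331, and PRKD3 for miR-301b. PLAGL2, a zinc-finger transcription factor, rose from 99.8 and 107 CPM to 132 and 145 CPM (0.42, SE 0.08, adjusted p = 0.0145), a call lost without the mimic library of C2 (0.35). TUSC2, a mitochondrial tumour suppressor, rose from 38.9 and 38.3 CPM to 47.5 and 51.1 CPM (0.36, adjusted p = 0.0358). That call was lost without any one of the 4 libraries (0.31 to 0.41) and with GC correction alone. CDK1, the mitotic kinase, was at 227 and 249 CPM against 200 and 226 CPM, and its groups overlapped (-0.16, SE 0.08, adjusted p = 0.277). KIF14, a kinesin of cytokinesis, was at 63.4 and 77.4 CPM against 53.1 and 59.0 CPM (-0.32, SE 0.11, adjusted p = 0.0876). With clone as a block CDK1 (adjusted p = 0.0247) and KIF14 (0.000187) were called down, and with GC correction as well neither was (adjusted p = 0.5 and 0.154), the value of CDK1 then being 0.05 and that of KIF14 -0.13. KIF14 was also called without the control library of A5 (-0.46) and with no filter on low counts (-0.33). PRKD3, protein kinase D3, differed by -0.07 (SE 0.09, adjusted p = 0.713), and by 0.12 with GC correction.

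Of 32 genes listed as miR-181 targets in other systems, 28 had an 8mer or 7mer-m8 in the 3′UTR. With clone as a block 12 of the 32 were called down and 1 up (13.6% and 15.6% of all genes). With GC correction as well 8 were called down and 7 up (7.9% and 10.8% of all genes). As tested, 6 of the 32 were called down (18.8%, against 3.95% of all genes) and 1 up. The 6 all had such a match, so 6 of 28 stand beside 14.7% of all tested genes with a match. LBR and HMGB2, both among the 6, are also on a list drawn up because its genes were seen to fall in these data. NOTCH2, a Notch receptor, went from 486 and 505 CPM to 326 and 305 CPM (-0.64, adjusted p = 0.00198). LBR, the lamin B receptor, went from 124 and 127 CPM to 84.7 and 80.4 CPM (-0.60, adjusted p = 0.00355). Of 30 tested genes of the RAS and ERK pathway 1 was called down as tested (3.33%, against 3.95% of all genes). The block gave 4 down and 6 up (13.6% and 15.6% of all genes). With GC correction as well 3 were called down and 4 up (7.9% and 10.8% of all genes). MCL1, an anti-apoptotic BCL2 relative on the target list, rose (0.36, adjusted p = 0.012), a call lost without the mimic library of C2 (0.34). In a short list drawn up because its genes were seen to fall in these data, HMGB1 was the other fall besides HMGB2, LBR and HDHD1 (4 of 5), from 270.1 and 315 CPM to 240.1 and 231 CPM (-0.31, adjusted p = 0.0491). HMGB1 was not called without the control library of C2 (-0.20) or either mimic library, nor with GC correction alone. Other listed targets with a match had values near 0, such as CDKN1B (0.05) and NLK (0.05).

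Among the components that make and use miRNAs, 6 of 24 were called down (25.0%, against 3.95% of all genes). DICER1, which cuts the hairpin, went from 179 and 210 CPM to 128 and 117 CPM (-0.66, adjusted p = 0.00431). CNOT6, a deadenylase with an 8mer, went from 174 and 176 CPM to 117 and 104 CPM (-0.66, adjusted p = 0.00334). CNOT1, its scaffold, and TNRC6B, which links Argonaute to the deadenylases, fell by 0.33 and 0.44 on the log2 scale, and DROSHA and XRN1 were the other falls. With block and GC correction 7 were called down and 4 up (7.9% and 10.8% of all genes). The block alone gave 10 down and 2 up (13.6% and 15.6% of all genes). TNRC6B and CNOT1 were not called without the mimic library of C2 (-0.31 and -0.33), nor CNOT1 without that of A5 or the control library of C2, and neither was with GC correction alone. The Argonaute genes AGO1 (0.16), AGO2 (-0.17), AGO3 (-0.00) and AGO4 (-0.39) were not called.

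Of 41 S-phase genes 2 were called down (4.88%) and 1 up (2.44%), and of 54 G2/M genes 4 down (7.41%), with medians of -0.085 and -0.16. Of all genes 3.95% were called down and 5.58% up. With clone as a block 26 G2/M genes were called down and 2 up (13.6% and 15.6% of all genes), and 11 and 4 with GC correction as well (7.9% and 10.8% of all genes). The S-phase counts were then 6 down and 2 up, and 3 and 7. POLA1, the catalytic subunit of DNA polymerase alpha with an 8mer, went from 91.3 and 106 CPM to 61.9 and 69.3 CPM (-0.58, adjusted p = 0.0084). HELLS, a chromatin remodeller, fell by 0.42 and UHRF1, which maintains DNA methylation, rose by 0.31. SMC4, a condensin subunit, fell by 0.37. Of these, HELLS was not called without the control library of C2 or either mimic library (-0.47 to -0.30), UHRF1 without any one of the 4 libraries (0.28 to 0.34) and SMC4 without either library of C2 (-0.35 and -0.27). None of these 4, POLA1 included, was called with GC correction alone.

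In the DNA repair list 8 of 35 were called down (22.9%, against 3.95% of all genes), with a median of -0.18 and a median GC content of 41.6%. BARD1, NBN, TOPBP1 and ATM, of homologous recombination and checkpoint signalling, fell by 0.51, 0.44, 0.39 and 0.41. With clone as a block 14 were called down, against 13.6% of all genes. With GC correction as well 11 were called down and 2 up (7.9% and 10.8% of all genes). GC correction alone left 0 of the 35 called by edgeR. Without the mimic library of C2, NBN (-0.40), TOPBP1 (-0.37) and ATM (-0.34) were not called, and ATM was also not called without the control library of C2 (-0.37).

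Of 23 p53 target genes CDKN1A and ZMAT3 (0.40, an RNA-binding protein) were called up and CCNG1, cyclin G1 with an 8mer, down (-0.69, adjusted p = 0.00308). As tested the shares were 8.70% up and 4.35% down, near the 5.58% and 3.95% of all genes. The block gave 8 up and 3 down (15.6% and 13.6% of all genes). With GC correction as well 4 were called up and 2 down (10.8% and 7.9% of all genes). Of 24 PI3K pathway genes 5 were called up and 5 down with the block (15.6% and 13.6% of all genes). As tested 4 were called up (16.7%, against 5.58% of all genes) and 2 down (8.33%, against 3.95%). Apart from PIK3CB the fall was in PIK3R3, a regulatory subunit with 2 matches (-0.46, adjusted p = 0.0069), while RPTOR, of the mTOR complex, rose by 0.43 and PIK3R2, another regulatory subunit, by 0.41. The call of PIK3R2 was lost with block and GC correction (0.07, adjusted p = 0.448). Without the mimic library of C2, ZMAT3 (0.39), RPTOR (0.48) and PIK3R2 (0.30) were not called, and RPTOR was also not called without the mimic library of A5 (0.38) or the control library of C2 (0.36). With GC correction alone none of the 4 rises of the PI3K list was called.

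Of 38 adhesion and matrix genes 9 were called up (23.7%, against 5.58% of all genes) and 1 down, with the claudins, the strand proteins of tight junctions, showing the largest rises. CLDN1 went from 3328 and 2982 CPM to 5647 and 5387 CPM (0.81, SE 0.07, adjusted p = 0.00135). CLDN4 went from 258 and 250 CPM to 405 and 465 CPM (0.78, adjusted p = 0.00173), and CLDN3 from 232 and 199 CPM to 321 and 347 CPM (0.64, adjusted p = 0.00431). All 3 lacked a 3′UTR match and were called with block and GC correction, under which CLDN3, of 69.2% GC, was at 0.16. With GC correction alone CLDN3 was not called. LAMA5, a laminin chain of 66.4% GC, rose by 0.38 as tested and was at -0.02 (adjusted p = 0.735) with block and GC correction. In all, 6 genes of the list were called up and 5 down under that alternative (10.8% and 7.9% of all genes). The block alone gave 12 up and 7 down (15.6% and 13.6% of all genes).

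In the list of ATF4 and unfolded protein response genes the directions were split. The endoplasmic reticulum chaperones HSPA5 and HSP90B1 fell, HSPA5 from 1223 and 1241 CPM to 821 and 819 CPM (-0.58, SE 0.06, adjusted p = 0.00173) and HSP90B1 from 1201 and 1143 CPM to 843 and 755 CPM (-0.55, adjusted p = 0.00406). SEL1L, of the degradation complex in the same membrane, rose (0.40, adjusted p = 0.0139), as did TRIB3, an ATF4 target (0.45, adjusted p = 0.0126). Of 23 genes 4 were called up (17.4%, against 5.58% of all genes) and 2 down (8.70%, against 3.95%). With block and GC correction 8 were called up and 2 down (10.8% and 7.9% of all genes). SEL1L was not called without the control library of C2 (0.33) or the mimic library of A5 (0.34), and TRIB3 not without the mimic library of C2 (0.40) or with GC correction alone. HSP90B1 carried an 8mer in its 3′UTR and HSPA5 a 7mer-A1.

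Of 28 lysosome genes 7 were called up (25.0%, against 5.58% of all genes), 11 with clone as a block (15.6% of all genes), and 1 with GC correction alone. The list was drawn up because SLC36A1 was known to rise in these data, and SLC36A1 had the largest rise. GAA and GRN, of lysosomal breakdown and trafficking, each rose by 0.42, with GAA not called under block and GC correction (0.07, adjusted p = 0.429). Of 23 apoptosis genes 4 were called up (17.4%, against 5.58% of all genes), and 7 with block and GC correction (10.8% of all genes). The 4, BAD, BAK1, MCL1 and BCL2L1, include inducers and inhibitors. Of 21 cholesterol synthesis genes 3 were called up (14.3%, against 5.58% of all genes), SREBF1 (0.58) and MVD (0.37) among them. With the block 6 were called up and 5 down (15.6% and 13.6% of all genes). MVD was at -0.01 with block and GC correction. Of 5 C/EBP family genes, listed because CEBPD was known to rise in these data, CEBPD and CEBPA (0.58) were called up (40%, against 5.58% of all genes). BAD was not called with block and GC correction (0.16, adjusted p = 0.108). Without the mimic library of C2, GAA, GRN, BAK1, BCL2L1, MCL1 and MVD were not called. Without that of A5 the same held for GRN, BCL2L1, MVD and CEBPA, and without the control library of C2 for GRN, BCL2L1 and MVD. With GC correction alone MCL1 and CEBPD were the only apoptosis and C/EBP genes called, and no gene of the cholesterol list was called.

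Of 23 TGF-beta and BMP pathway genes 3 were called up and 3 down (13.0% each, against 5.58% and 3.95% of all genes). The counts were 6 up and 8 down with the block (15.6% and 13.6% of all genes). They were 6 and 3 with GC correction as well (10.8% and 7.9% of all genes). The activin receptors ACVR2A and ACVR2B, with 3 and 5 matches, fell by 0.79 and 0.65 (adjusted p = 0.0262 and 0.0274), and the inhibitors SMAD6 and SKI rose by 0.73 and 0.38. These 4 calls were lost without the control library of C2 or without either mimic library, and GC correction alone left 0 genes of the list called by edgeR. Of 37 interferon-stimulated genes DDX58, a sensor of double-stranded RNA with a 3′UTR match, was the only call (-0.61, adjusted p = 0.0132, lost without the mimic library of C2 and with GC correction alone), in cells that had received double-stranded RNA in both groups. The share of these 37 called down was 2.70%, against 3.95% of all genes. With the block 5 were called down and 2 up (13.6% and 15.6% of all genes). The miR-181 host transcripts MIR181A1HG (-0.17) and MIR181A2HG (-0.39) were not called.

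The response was then compared with that of WT cells, in libraries that share none with the D538G comparison. In WT cells 2452 of 14968 genes (16.4%) were called. Of 584 genes called down in D538G and tested in WT, 582 were lower in WT as well and 505 (86.5%) were called there, and of 824 called up 821 were higher and 607 (73.7%) called. Taken from the WT side, 505 of 1239 genes called down (40.8%) and 607 of 1213 called up (50.0%) were called the same way in D538G. Over 14449 genes the Pearson correlation of the log2 fold changes was 0.51, and 0.36 with block and GC correction, a description over genes. In both genotypes fold changes followed GC content (Spearman correlation 0.57 in D538G and 0.59 in WT), so both responses carry that trend.

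All 12 largest falls of D538G were called in WT, each with a larger fall there. KIF3B was at 238 and 245 CPM in WT control and 71.2 and 73.4 CPM in WT mimic libraries (-1.75, SE 0.07), and the difference between genotypes was 0.61 (SE 0.10, adjusted p = 0.568). With clone as a block this difference was called (adjusted p = 0.000777). The differences of the other 11 were not called with or without the block. Of the 12 rises, all were higher in WT and 10 were called there, the exceptions being METRN (0.60, adjusted p = 0.0544) and FAM43A (0.48, adjusted p = 0.0942). ESR1 fell by 0.66 in WT, from 117 and 116 CPM to 77.1 and 72.5 CPM, and the difference between genotypes was 0.06 (SE 0.13, adjusted p = 1).

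SDAD1, which takes part in ribosome export, was the only gene of 15482 tested (0.00646%) whose response differed between genotypes in the edgeR test (difference -1.85, SE 0.16, adjusted p = 0.00123). In the same test 453 genes had an unadjusted p below 0.05, and DESeq2 called 2 of 20860 genes (376 at an unadjusted p below 0.05). Both 453 and 376 are below a share of 0.05 of the genes tested, the share expected where no gene differs. SDAD1 was at 240 and 178 CPM in D538G control, 199 and 199 CPM in D538G mimic, 55.5 and 58.6 CPM in WT control and 213 and 185 CPM in WT mimic libraries. The libraries that stood apart were therefore the 2 WT controls. In D538G the gene did not pass the test (-0.07, SE 0.12, adjusted p = 0.791), and its sign turned with GC correction (0.10) and without the control library of A5 (0.17). With clone as a block 12 genes differed, 7 with a lower and 5 with a higher value in D538G.

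**Figure D5:**
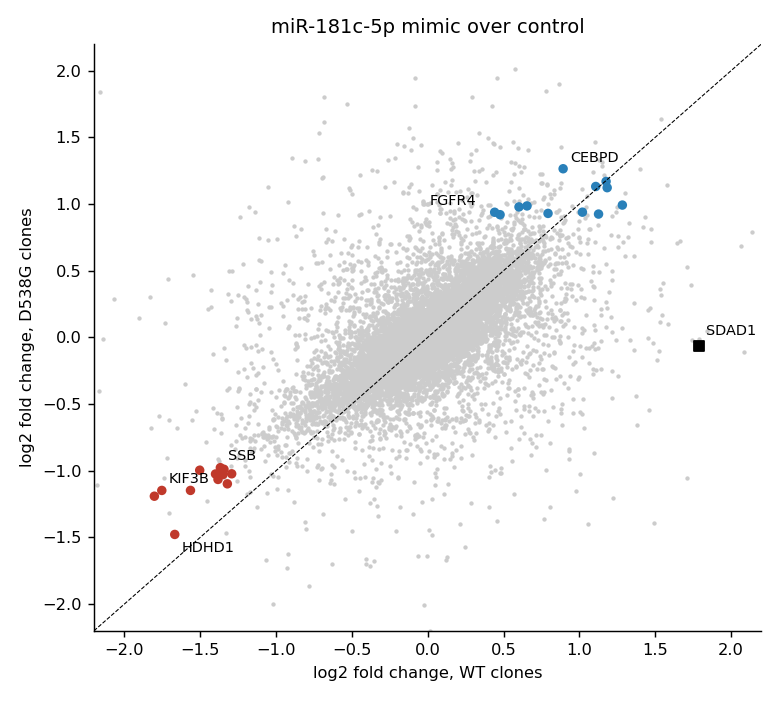
Log2 fold change of the miR-181c-5p mimic over control in WT clones (x axis) and in D538G clones (y axis); each grey point is a gene, red and blue points are the 12 largest falls and rises of D538G, the black square is SDAD1, and the dashed line marks equal change; a few points outside the axis are not drawn. The red points lie above the line, with larger falls in WT, and SDAD1 lies at 1.79 in WT and -0.07 in D538G.

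In D538G cells the miR-181c mimic was last set against the miR-301b mimic, a comparison in which both sides received an active miRNA and GC content followed the difference less (Spearman correlation -0.12). It shares the miR-181c libraries with the comparison above. Of 14979 genes 358 (2.39%) were called, 127 lower and 231 higher with miR-181c, and 2659 with clone as a block. Of 1954 genes with a 3′UTR match to miR-181c only, 80 were lower and 20 higher (median difference -0.075), and of 1285 with a match to miR-301b only 2 were lower and 99 higher (median 0.10). The 827 genes with both had a median of 0.02 and the 8977 with neither 0.0043.

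KIF3B was at 245 and 254 CPM with the miR-301b mimic, close to control, and was lower with miR-181c (-1.12, SE 0.08, adjusted p = 0.00845). DRAM1, a lysosomal gene of autophagy, was at 12.6 and 12.3 CPM with miR-181c against 27.0 and 35.0 CPM (-1.31, adjusted p = 0.0156), and ZNF788 also differed (-1.05, adjusted p = 0.0209). In the other direction MMD (1.43, adjusted p = 0.0156), TMED7, a trafficking receptor (1.31, adjusted p = 0.011), and CDK19, a Mediator kinase (1.25, adjusted p = 0.0156), were higher with miR-181c. Of these CDK19 had also risen over control (0.84), whereas MMD (0.33, adjusted p = 0.281) and TMED7 (0.03, adjusted p = 0.872) had not passed that test (MMD did with the block, adjusted p = 0.0303). ESR1 was at 151 and 115 CPM with miR-301b and did not differ by the test between the mimics (0.26, SE 0.14, adjusted p = 0.478).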

How the data were processed

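RNA-seq counts per gene were used from 14 libraries of 24, 2 per group, in D538G and WT T-47D clones. The authors made KAPA Stranded poly-A libraries, aligned reads to hg19 with HISAT2 and deposited raw counts from featureCounts (Subread) on UCSC Known Genes; versions, strand setting and treatment of multi-mapping reads are not given in the sources used here. Counts were tested with edgeR 4.0.16 in R 4.3.3 (filterByExpr, TMM, quasi-likelihood test, Benjamini-Hochberg adjustment, threshold 0.05), each comparison in its own groups. CPM values are TMM-normalised over the 14 libraries, and log2 CPM used a prior count of 2. The scripts were tested on simulated data. Clone names in the column headers pair libraries: clone differences correlated between mimic and control at 0.254 (D538G) and 0.198 (WT). The block leaves 1 residual degree of freedom, fewer than the 2 without it. GC trends were removed as lowess offsets (span 0.3). Alternatives were DESeq2 1.42.0, its size factors, no filter on low counts, all groups of a genotype in 1 fit, the clone block, GC correction, both together, and each library left out. Seed matches were read from 1 GENCODE v44lift37 transcript per gene (23816 of 26364 symbols matched, 1322 by an older symbol). Genes named are those the study singled out, the 12 largest called rises and falls of at least 3 log2 CPM with the same sign in both clones, up to 4 called members per list with the smallest p, and the largest called differences of the other comparisons; KIF3C and the other list members given with values were chosen after their values were seen. Members and lists were chosen with earlier results of these data known. Intervals cover counting error only. Some list members are not reported here.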

Additional observations from a re-analysis of the deposited data

Results flagged for a closer look

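The response of SDAD1 to the miR-181c-5p mimic differed between genotypes by -1.85 on the log2 scale (D538G minus WT, SE 0.16), in a test of the difference itself (edgeR, adjusted p = 0.00123). Its level was 55.5 and 58.6 CPM in the WT control libraries and 178 to 240 CPM in the other 6 libraries of this comparison. Groups of 2 libraries were too small for a test of single outlying libraries.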

How the results depend on the processing

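The number of genes called for the mimic against control in D538G cells, 1412, was 2438 with no filter on low counts, 4341 with the replicate block (clone), 203 with GC correction and 2768 with both, and 357 to 1804 with each library left out. In WT cells, 2452 became 4173 with the replicate block, 1110 with GC correction, and 888 to 2420 with each library left out. For the difference between genotypes, 1 became 2 with DESeq2, 21 with no filter, 12 with the replicate block and 11 with block and GC correction, and 1 to 2 with each library left out. Between the miR-181c and miR-301b mimics, 358 became 769 with DESeq2, 1082 with no filter, 581 with all groups in 1 fit, 2659 with the replicate block and 2896 with block and GC correction, and 347 to 621 with each library left out. The share of genes called down with a seed match, 71.0%, was 65.3% with DESeq2, 61.8% with no filter, 50.2% with the replicate block, 81.2% with GC correction, 51.7% with both and 38.9% for 8mers only (64.3% to 80.1% with each library left out). The median difference by seed match, -0.187, was -0.0741 with GC correction, -0.0741 with block and GC correction and -0.251 for 8mers only. The sign turned, with GC correction and with block and GC correction respectively, for LAMA5 (-0.0233 and -0.0230), MVD (-0.00683 and -0.00685) and, among values that were not called, CDK1 (0.0523 and 0.0484), PRKD3 (0.12 and 0.12) and SDAD1 in D538G cells (0.105 and 0.121). With each library left out SDAD1 ran from -0.27 to 0.17 and TMED7 against control from -0.0722 to 0.144. Of the 98 named values, GC correction alone left 49 on the same side of the threshold with the same sign, and block and GC correction 87. The replicate block ended no call among them. The cause of these changes was not tested. With 2 libraries a group, leaving 1 out leaves an arm with a lone library, which is assumed to vary like the others, and an exact permutation of 2 against 2 cannot go below p = 0.333.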
